A study of Homo sapiens with 54 samples.

Results

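Interleukin-10 (IL-10) given for 3 h to HCT116, a human colon cancer line, was compared with untreated control cells (NC) of the same line, in 3 libraries each, 6 of the 54 libraries of the series. The IL-10 cells received 50 ng/mL of the cytokine by the series text. The treatment protocol in the labels names the other agents and leaves IL-10 out. Controls received the same volume of complete medium, and the NC labels give no time. Both groups grew in DMEM with serum, adhered overnight before treatment and were rinsed once before lysis. Members were taken by line, agent and hour from the library titles, and 11395 of the 50037 gene entries passed the test filter of at least 1 FPKM (fragments per kilobase of transcript and per 1 M of a scaled library size) in at least 3 of the 27 HCT116 libraries. Other HCT116 cells of the series got IL-6 (50 ng/mL), the kinase inhibitor Torin1 (1 µM) or TNF-α (100 ng/mL), all for 3 h or 6 h, and HepG2, a liver cancer line, was treated alike. The 3 libraries of a group are described as biological replicates, with nothing on whether they came from separate cultures, so each p-value rests on a spread between libraries. That spread is taken within groups and pooled over the 27 HCT116 libraries, or over all 54 libraries where HepG2 enters. IL-10 exposure and any other step that set the 3 h cells apart from NC, whose hour is not labelled, cannot be told apart in this comparison. In bulk RNA, fewer cells of a type and less RNA per cell cannot be told apart either.

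IL-10 binds a receptor of IL10RA and IL10RB chains, which pass the signal through the kinases JAK1 and TYK2 to the transcription factor STAT3. In epithelial cells the ERK cascade, SRF and YAP-TEAD act on a layer of immediate early genes, such as the AP-1, EGR and KLF factors. Secreted and cell-surface genes such as CCN1, THBS1, PLAU and AREG follow within hours, together with phosphatases and repressors that close the response.

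Reads on genes numbered 44.2 to 55.7 M in the IL-10 libraries and 40.0 to 45.1 M in the NC libraries, and 1 read per kb of transcript came to 0.0167 to 0.0225 FPKM across both groups. Mitochondrially encoded genes, 13 in the list, held 5.03% to 5.65% of reads in IL-10 cells and 5.62% to 6.02% in NC cells. The colon epithelium markers summed to 1809 to 1860.3 FPKM in IL-10 cells and 1818 to 1979.5 FPKM in NC cells over 15 genes, carried by EPCAM and the keratins KRT8, KRT18 and KRT19, while 9 of the 15, among them CDH17, VIL1 and KRT20, lay under the test filter. The fibroblast markers summed to 1.13 to 1.20 FPKM against 0.909 to 0.927 FPKM over 10 genes, of which 5 and 6 were listed at 0, and the blood cell markers to 3.50 to 3.88 FPKM against 4.34 to 4.49 FPKM over 11 genes, of which 4 were listed at 0 in each group. The endothelial markers summed to 0.0744 to 0.132 FPKM against 0.0765 to 0.0991 FPKM. The hepatocyte markers summed to 2.13 to 6.39 FPKM against 4.28 to 8.19 FPKM.

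After 3 h of IL-10 the transcriptome differed from NC in many genes by little and in a few genes by much. Of the genes tested, 4416 (38.8%) were called at a limma adjusted p under 0.05, 2486 (21.8%) higher and 1930 (16.9%) lower in IL-10 cells. A fit of the compared libraries alone called 3399, 1938 higher and 1461 lower. The median called rise was log2 0.20 and the median called fall log2 -0.19, and 82.5% of the rises and 87.1% of the falls were smaller than 1.25-fold. At least 2-fold changes were made by 29 genes that rose (0.254%) and 6 that fell (0.0527%), and 4 and 5 of them also carry another entry, on an alternate copy of the locus, which leaves their levels uncertain. The side on which the smaller changes fall depends on the scaling: 2130 genes were higher and 2265 lower with median-of-ratios scaling, 1752 and 2738 with total-read scaling, and 1742 and 2740 with voom on recovered reads. The median over all genes tested stayed between log2 0.01 and -0.03 under these scalings.

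Genes to name were taken among those called, with 1 entry in the table, at least 5 FPKM in a group and no overlap of the groups. Of all genes tested, 49.1% had no overlap. Of the 15 largest rises among them, 13 are described here. THBS1 (chromosome 15, 39581079 to 39599466 on GRCh38.p14), the matrix protein thrombospondin-1, had 14.4, 14.7 and 11.1 FPKM in the IL-10 libraries, against 2.50, 3.31 and 2.62 FPKM in the NC libraries (log2 1.91 ± 0.18, limma adjusted p = 6.89e-08). CCN1 (chromosome 1, 85580761 to 85583950), a matricellular integrin ligand and a textbook YAP-TEAD target, had 37.2, 40.3 and 31.6 FPKM in the IL-10 libraries, against 10.0, 12.6 and 10.7 FPKM in the NC libraries (log2 1.63 ± 0.13, limma adjusted p = 7.31e-09). The lowest IL-10 library lay well above the highest NC library in both, as the choice of genes without overlap requires. AREG (chromosome 4, 74445136 to 74455005), which encodes the EGF receptor ligand amphiregulin, was the most abundant of the 13, with 479, 485 and 439 FPKM in the IL-10 libraries, against 181, 199 and 191 FPKM in the NC libraries (log2 1.29 ± 0.10, limma adjusted p = 7.03e-09).

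The others of the 13 are transcription factors, receptors, signalling inhibitors and membrane proteins. OVOL1, a zinc finger transcription factor of epithelia, had 14.7, 15.8 and 14.6 FPKM in the IL-10 libraries, against 3.42, 3.34 and 4.09 FPKM in the NC libraries (log2 1.80 ± 0.11, limma adjusted p = 2.6e-10). GEM, a small GTPase of the RGK family, averaged 12.9 ± 0.705 FPKM in IL-10 cells and 3.66 ± 0.486 FPKM in NC cells, and PARD6B, a polarity complex subunit, averaged 28.7 ± 1.13 FPKM in IL-10 cells and 9.19 ± 0.405 FPKM in NC cells (SD, n = 3 each). SLC16A6, a monocarboxylate transporter family member, rose by log2 1.45 and MYADM, a membrane raft protein, by log2 1.19 (limma adjusted p = 3.26e-10 and 1.65e-08). CLCF1, a cytokine of the IL-6 family, rose by log2 1.36 (limma adjusted p = 1.56e-07). All 13 genes kept their call under each of 15 alternative settings.

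**Figure D1:**
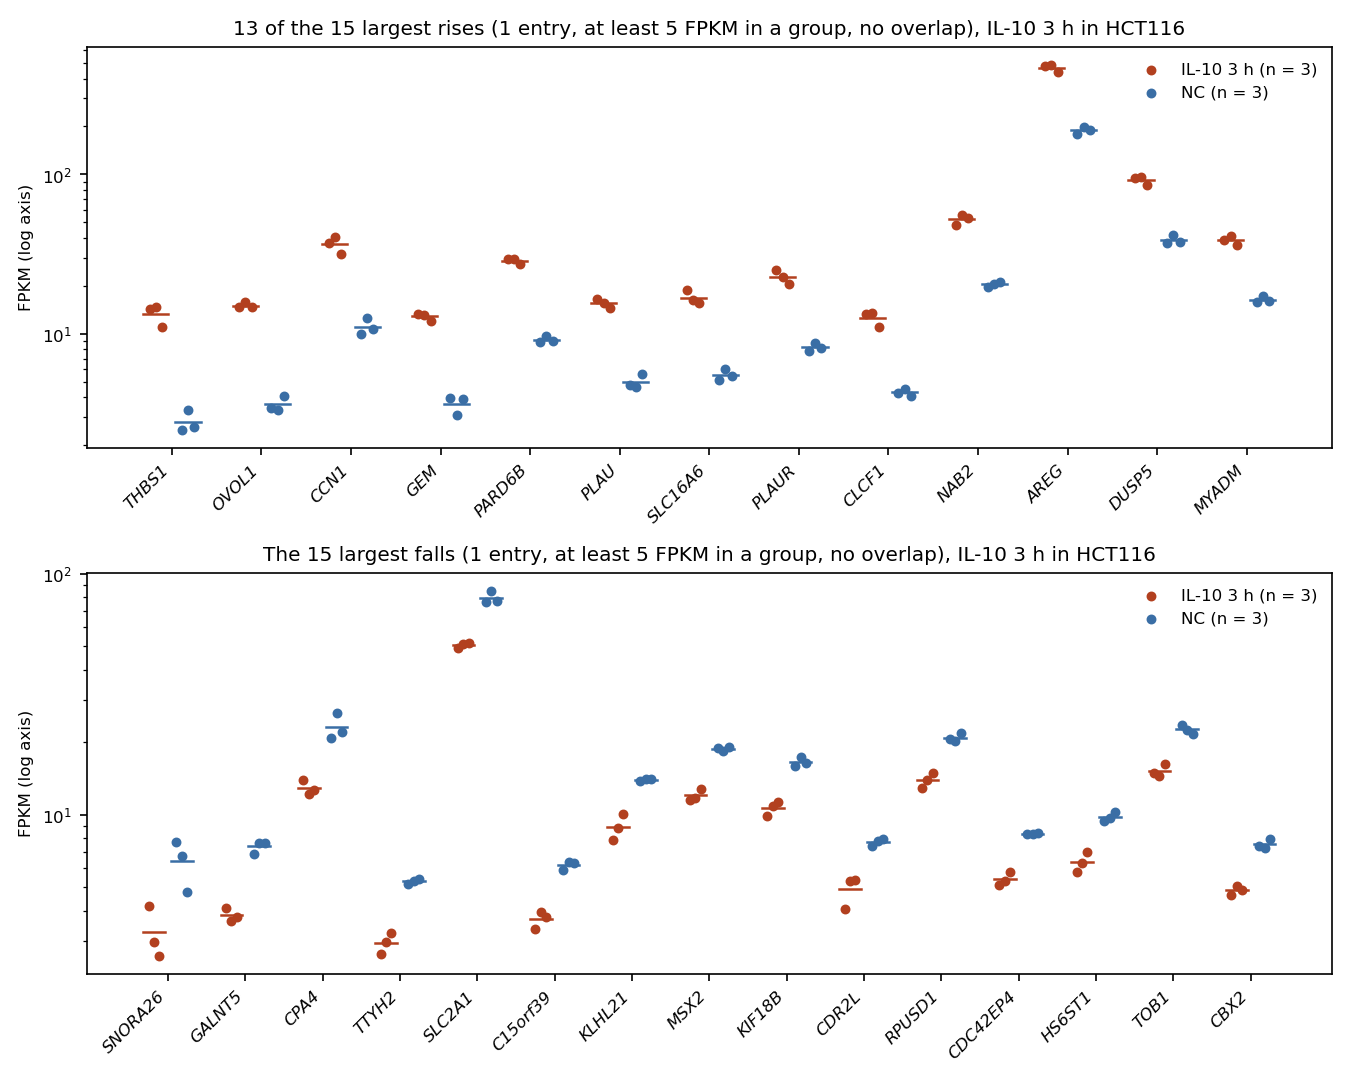
FPKM on a log axis of 13 of the 15 largest rises (upper panel) and the 15 largest falls (lower panel) among genes within the limits above, with 1 point per library, IL-10 3 h left and NC right, and a line at each mean of 3 libraries. The genes were chosen for groups that do not overlap. The distance between the groups is wider for rises such as THBS1 (11.1 to 14.7 FPKM in IL-10 cells, 2.50 to 3.31 FPKM in NC cells) than for falls such as SLC2A1 (49.0 to 51.6 FPKM in IL-10 cells, 76.4 to 84.4 FPKM in NC cells).

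Transcripts of both IL-10 receptor chains lay under the test filter. IL10RA had 0.242, 0.161 and 0.211 FPKM in the IL-10 libraries, against 0.176, 0.157 and 0.156 FPKM in the NC libraries. IL10RB had 0.0991, 0.110 and 0.0303 FPKM in the IL-10 libraries, against 0.0875, 0.0572 and 0.0595 FPKM in the NC libraries, but the annotated read-through gene IFNAR2-IL10RB, listed at 0 in these libraries, covers 70.4% of its span on chromosome 21 (33266367 to 33310182), so that level is uncertain. A value of 0 in this table says only that a gene is listed at 0, since EIF4A1 and FTH1, which every cell uses, are also listed at 0 in these 6 libraries. IL20RA and IL20RB, chains of related receptors, lay under the filter as well. Of the 7 members of the receptor and JAK-STAT list that were tested, 2 rose, 2 fell and 3 did not pass, with a median of log2 -0.07 against 0.01 over all genes. IL22RA1, a chain of the IL-22 receptor, fell to 0.694 ± 0.0729 FPKM in IL-10 cells, against 1.14 ± 0.0334 FPKM in NC cells (limma adjusted p = 0.00383). STAT3 had 12.7, 12.6 and 12.3 FPKM in the IL-10 libraries, against 11.3, 11.3 and 12.1 FPKM in the NC libraries (log2 0.11, limma adjusted p = 0.0434), and leaving out IL-10 replicate 1 or 2 or NC replicate 1 or 2 ended that call (adjusted p 0.0905 to 0.132), as did each other scaling. IFNLR1, the interferon lambda receptor, stood at log2 -0.16, a call lost without IL-10 replicate 1, 2 or 3 or NC replicate 1 or 3 (adjusted p 0.0536 to 0.144). JAK1, JAK2 and TYK2 had log2 0.03, -0.10 and -0.07, none of them passing.

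Among 17 tested genes of the JAK-STAT3 target list, 6 rose and 3 fell, with a median of log2 0.02. SOCS3, the feedback inhibitor most closely tied to STAT3, was lower in IL-10 cells, at 2.32, 2.28 and 2.19 FPKM in the IL-10 libraries, against 2.54, 3.02 and 3.36 FPKM in the NC libraries (log2 -0.28 ± 0.07, limma adjusted p = 0.00187), and the 2 groups did not overlap. ICAM1, an adhesion molecule, fell by 0.36 on the log2 scale (limma adjusted p = 0.000464). PIM1, a kinase gene, rose to 7.98 ± 0.149 FPKM in IL-10 cells, against 4.28 ± 0.454 FPKM in NC cells (limma adjusted p = 1.3e-06). TNFRSF1A, the TNF receptor, rose by log2 0.42 and MCL1, a survival factor, by log2 0.33 (limma adjusted p = 1.9e-08 and 1.49e-06).

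Immediate early transcription factors were higher in most of the measured cases. In the AP-1 and MAF list 8 of 12 tested genes rose and 1 fell, with a median of log2 0.37. FOSL2, a FOS family subunit, had 21.5, 22.5 and 21.3 FPKM in the IL-10 libraries, against 10.0, 10.3 and 10.4 FPKM in the NC libraries (log2 1.02 ± 0.04, limma adjusted p = 1.21e-12), the tightest of these rises. JUND and JUN, the partners of FOS proteins, rose by log2 0.98 and 0.84, MAFF, a small MAF factor, by log2 0.89, and the stress factor ATF3 by log2 0.57 (limma adjusted p = 5.94e-08, 2.09e-08, 4.79e-07 and 1.25e-05). JUNB and FOSL1 rose by log2 0.41 and 0.34. FOS, the prototype of the family, had 1.51, 1.83 and 1.38 FPKM in the IL-10 libraries, against 1.58, 1.84 and 1.71 FPKM in the NC libraries, an overlap of the groups (log2 -0.08, limma adjusted p = 0.537). FOSB was near the filter at log2 0.25, a call lost without NC replicate 2 (adjusted p 0.0806), MAFG fell by 0.22 on the log2 scale, and MAFK and BATF3 did not pass.

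Of 10 tested genes of the EGR, IER and NR4A list, 8 rose and none fell, with a median of log2 0.47. The 2 that did not pass were EGR1 and IER5L. NAB2, a corepressor that EGR factors induce and that in turn restrains them, had 48.3, 55.5 and 53.3 FPKM in the IL-10 libraries, against 19.6, 20.6 and 21.1 FPKM in the NC libraries (log2 1.31 ± 0.04, limma adjusted p = 2.32e-14). Its relative NAB1 rose by log2 0.48 (limma adjusted p = 3.26e-10). EGR1 itself had 17.8, 20.7 and 19.2 FPKM in the IL-10 libraries, against 15.9, 16.1 and 17.8 FPKM in the NC libraries (log2 0.20, limma adjusted p = 0.0532), just short of the threshold, and it passed without IL-10 replicate 1 (adjusted p 0.0379) or NC replicate 3 (0.0381). EGR3 rose by log2 1.09, and the nuclear receptor genes NR4A3, NR4A1 and NR4A2 by log2 1.12, 0.88 and 0.46 (limma adjusted p = 9.47e-10, 8.02e-08, 1.09e-08 and 5.09e-05), with NC means for the NR4A genes and EGR3 of 0.225 to 1.49 FPKM, where the added 1 FPKM understates the fold. NR4A3 had 1.94, 1.70 and 1.37 FPKM in the IL-10 libraries, against 0.206, 0.245 and 0.223 FPKM in the NC libraries. IER5 and IER2 rose by log2 0.45 and 0.21. EGR2 (0.252 to 0.292 FPKM in IL-10 cells and 0.0955 to 0.141 FPKM in NC cells) and EGR4 lay under the filter.

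The KLF factors split by member, with 5 rises and 3 falls among 9 tested. KLF5, a growth-promoting factor of intestinal crypt epithelium, had 45.9, 42.0 and 39.6 FPKM in the IL-10 libraries, against 19.2, 21.5 and 20.9 FPKM in the NC libraries (log2 1.01 ± 0.09, limma adjusted p = 2.92e-08). KLF6 averaged 43.5 ± 2.38 FPKM in IL-10 cells and 24.1 ± 1.38 FPKM in NC cells (limma adjusted p = 1.05e-07), and KLF9 and KLF10 rose by log2 0.65 and 0.28. KLF11 and KLF2 fell by 0.38 and 0.22 on the log2 scale (limma adjusted p = 1.33e-05 and 0.0014). KLF4 (log2 0.15) was called, but not without IL-10 replicate 1 or 2 or NC replicate 1 or 2 (adjusted p 0.0511 to 0.103) and not with total-read scaling or voom, nor was KLF16 (log2 -0.17) without IL-10 replicate 1 or NC replicate 3 (0.0683 to 0.079). KLF3 did not pass, and KLF7 and KLF13 lay under the filter.

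Genes that dampen the ERK cascade were higher in most cases. Of 12 tested feedback inhibitors, 9 rose and 2 fell, with a median of log2 0.45. Only 1 fell without IL-10 replicate 1 or 2 or NC replicate 1 or 3. DUSP5, a nuclear ERK phosphatase, had 94.5, 96.9 and 86.1 FPKM in the IL-10 libraries, against 37.2, 41.4 and 37.6 FPKM in the NC libraries (log2 1.23 ± 0.08, limma adjusted p = 6.33e-10). DUSP6, the cytoplasmic ERK phosphatase, averaged 33.7 ± 0.845 FPKM in IL-10 cells and 18.7 ± 0.475 FPKM in NC cells (limma adjusted p = 5.66e-11). SPRY4, which restrains RAS signalling, rose by log2 0.58, and ERRFI1, which binds and inhibits the EGF receptor, by log2 0.55 (limma adjusted p = 1.09e-07 and 2.7e-07).

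The EGF receptor ligand genes AREG, EREG and HBEGF rose, and receptor genes gave at most small differences. Of 10 tested ligands, receptors and sheddases, 5 rose and 1 fell. EREG, which encodes epiregulin, had 347, 314 and 312 FPKM in the IL-10 libraries, against 179, 196 and 181 FPKM in the NC libraries (log2 0.80 ± 0.07, limma adjusted p = 7.74e-08), and HBEGF, the heparin-binding ligand, had 8.03, 8.11 and 7.23 FPKM in the IL-10 libraries, against 3.51, 4.16 and 3.29 FPKM in the NC libraries (log2 0.92 ± 0.10, limma adjusted p = 3.15e-07). The groups of both ligands stood apart. TGFA (19.4 ± 0.528 FPKM in IL-10 cells and 19.0 ± 1.29 FPKM in NC cells) and BTC (log2 0.07) did not pass, and EGF, the ligand the series text names, lay under the filter at 0.00631 to 0.0332 FPKM in IL-10 cells and 0 to 0.0317 FPKM in NC cells, with 1 NC library listed at 0. The sheddase genes ADAM17 and ADAM10 rose by log2 0.25 and 0.14 (limma adjusted p = 1.28e-05 and 0.000164). EGFR stood at log2 -0.16 (limma adjusted p = 0.0261), a call lost without IL-10 replicate 1 (adjusted p 0.0898) or NC replicate 2 (0.103). ERBB2 and ERBB3 did not pass, and ERBB4 was listed at 0 in all 6 libraries.

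Several other secreted signals rose. LIF, a cytokine of the IL-6 family, had 8.86, 8.74 and 8.39 FPKM in the IL-10 libraries, against 3.71, 4.51 and 4.24 FPKM in the NC libraries (log2 0.91 ± 0.07, limma adjusted p = 1.03e-08). DKK1, a secreted WNT inhibitor, had 499, 435 and 421 FPKM in the IL-10 libraries, against 300.0, 319 and 290.1 FPKM in the NC libraries (log2 0.57 ± 0.06, limma adjusted p = 1.04e-06). PDGFA rose by log2 0.57 and GDF15, a stress-induced member of the TGF-beta family, by log2 1.06 (limma adjusted p = 4.22e-06 and 1.31e-08). In the list of other growth factors 6 of 12 tested rose and 1 fell (median log2 0.24), beside 21.8% and 16.9% of all genes tested. In the TGF-beta, activin and BMP list 4 of 12 rose and 2 fell, with a median of log2 -0.0012 and a share of falls near that of all genes. Its rises included ID2, a BMP and TGF-beta target (log2 0.57), and SMAD3 (log2 0.30), and its falls BAMBI, a pseudoreceptor (log2 -0.42).

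Urokinase and its receptor rose together. PLAU, the urokinase protease, had 16.4, 15.6 and 14.5 FPKM in the IL-10 libraries, against 4.77, 4.62 and 5.63 FPKM in the NC libraries (log2 1.46 ± 0.07, limma adjusted p = 3.22e-12), and its receptor PLAUR had 25.0, 22.8 and 20.4 FPKM in the IL-10 libraries, against 7.79, 8.73 and 8.13 FPKM in the NC libraries (log2 1.36 ± 0.12, limma adjusted p = 4.47e-08). Of 12 tested genes of the plasminogen, TIMP and MMP list, 7 rose and none fell at a median of log2 0.20, but with total-read scaling or voom 6 rose and 1 fell. TIMP1 and TIMP2, protease inhibitors that the series text names, had log2 0.01 and 0.02, neither passing (limma adjusted p = 0.881 and 0.75), and TIMP3 rose by log2 0.26. MMP14, a membrane protease, stood at log2 0.15, a call lost without IL-10 replicate 2 or 3 or NC replicate 1 or 2 (adjusted p 0.0928 to 0.153).

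Matricellular and YAP-TEAD target genes were divided, with 8 rises and 6 falls among 19 tested. Beside THBS1 and CCN1, the kinase gene NUAK2 had 4.77, 5.18 and 4.20 FPKM in the IL-10 libraries, against 1.36, 1.56 and 1.38 FPKM in the NC libraries (log2 1.23 ± 0.09, limma adjusted p = 1.35e-09), and CCN2, the sister gene of CCN1, had 2.31, 2.58 and 1.90 FPKM in the IL-10 libraries, against 0.721, 1.03 and 0.919 FPKM in the NC libraries (log2 0.79 ± 0.12, limma adjusted p = 2.27e-05). AMOTL2 and LATS2, which act back on YAP, rose by log2 0.58 and 0.35, whereas CRIM1 and DOCK5 fell by 0.41 and 0.42 on the log2 scale. In the SRF and MRTF list of cytoskeletal genes 7 of 18 rose and 2 fell. Only 4 rose without IL-10 replicate 1 or 2, without NC replicate 1 or with no filter on low values, a share near that of all genes. SRF, the transcription factor itself, had 26.8, 29.8 and 26.3 FPKM in the IL-10 libraries, against 14.1, 15.8 and 15.1 FPKM in the NC libraries (log2 0.84 ± 0.08, limma adjusted p = 5.85e-08), FHL2, a LIM domain cofactor, rose by log2 0.54, and VCL, the focal adhesion protein vinculin, by log2 0.51 (limma adjusted p = 9.6e-05 and 0.000243). ACTB, ACTG1 and MYH9 had log2 0.04, 0.16 and 0.02, none passing.

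Promoter sequence upstream of 5 of the genes that rose is shown because each window holds a motif of the search described below. The stretches come from RefSeq (GRCh38.p14), read 5′ to 3′ on the gene's strand, each 100 bases long, with the searched motif in capitals. THBS1 (chr15:39580979-39581078, plus strand) and CCN2 (chr6:131951453-131951552, minus strand) hold the TEAD element GGAATG, AREG (chr4:74445036-74445135, plus strand) and FOSL2 (chr2:28392758-28392857, plus strand) the cAMP response element core TGACGT, and SRF (chr6:43171169-43171268, plus strand) 2 CArG boxes, the site that SRF itself binds. All stretches but that of CCN2 end at the base before the annotated start, and that of CCN2 ends 81 bases before it.
THBS1: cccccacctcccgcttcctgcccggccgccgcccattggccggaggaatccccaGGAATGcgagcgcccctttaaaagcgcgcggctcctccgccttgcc
CCN2: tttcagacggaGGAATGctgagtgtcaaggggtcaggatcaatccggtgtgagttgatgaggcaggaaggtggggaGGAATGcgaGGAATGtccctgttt
AREG: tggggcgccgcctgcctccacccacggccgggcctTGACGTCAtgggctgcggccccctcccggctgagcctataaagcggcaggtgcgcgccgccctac
FOSL2: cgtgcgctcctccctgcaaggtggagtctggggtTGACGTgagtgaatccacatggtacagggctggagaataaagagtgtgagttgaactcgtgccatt
SRF: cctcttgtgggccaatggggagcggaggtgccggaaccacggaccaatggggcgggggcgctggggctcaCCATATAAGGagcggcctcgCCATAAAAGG

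These elements are common, so the matches are a description. Of the genes tested, 8650 matched a window by gene ID, and the 250 bases upstream of each start were searched on both strands. The motifs were the AP-1 element TGANTCA, the cAMP response element core TGACGT, the TEAD element GGAATG, the E-box CACGTG and the CArG box. TGACGT was in 22.2% of the 63 windows of genes called and at least 1.5-fold higher, in 13.0% of the 2017 windows of all called rises, in 8.90% of the 1573 windows of called falls and in 11.1% of all tested windows. GGAATG was in 17.5% of the 63, 9.97% of the rises, 7.88% of the falls and 9.17% of all tested windows. The AP-1 element was in 7.94%, 4.71%, 3.05% and 3.80% in the same order, the CArG box in 3.17%, 1.29%, 0.509% and 0.971%, and the E-box in 6.35%, 8.13%, 10.9% and 9.25%. The 13 windows of genes called and at least 1.5-fold lower are few, and 15.4% of them held the AP-1 element, 7.69% each the cAMP response element core, the TEAD element and the E-box, and 0 the CArG box. Over all 27305 windows of the table the shares were 6.60% for the AP-1 element, 7.42% for TGACGT, 11.9% for GGAATG, 6.49% for the E-box and 1.14% for the CArG box. Each AP-1 element and CArG box reads the same class on both strands and was counted once per window, and TGACGT can match both strands at overlapping positions, as in AREG, where the capitals then cover 8 bases.

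**Figure D2:**
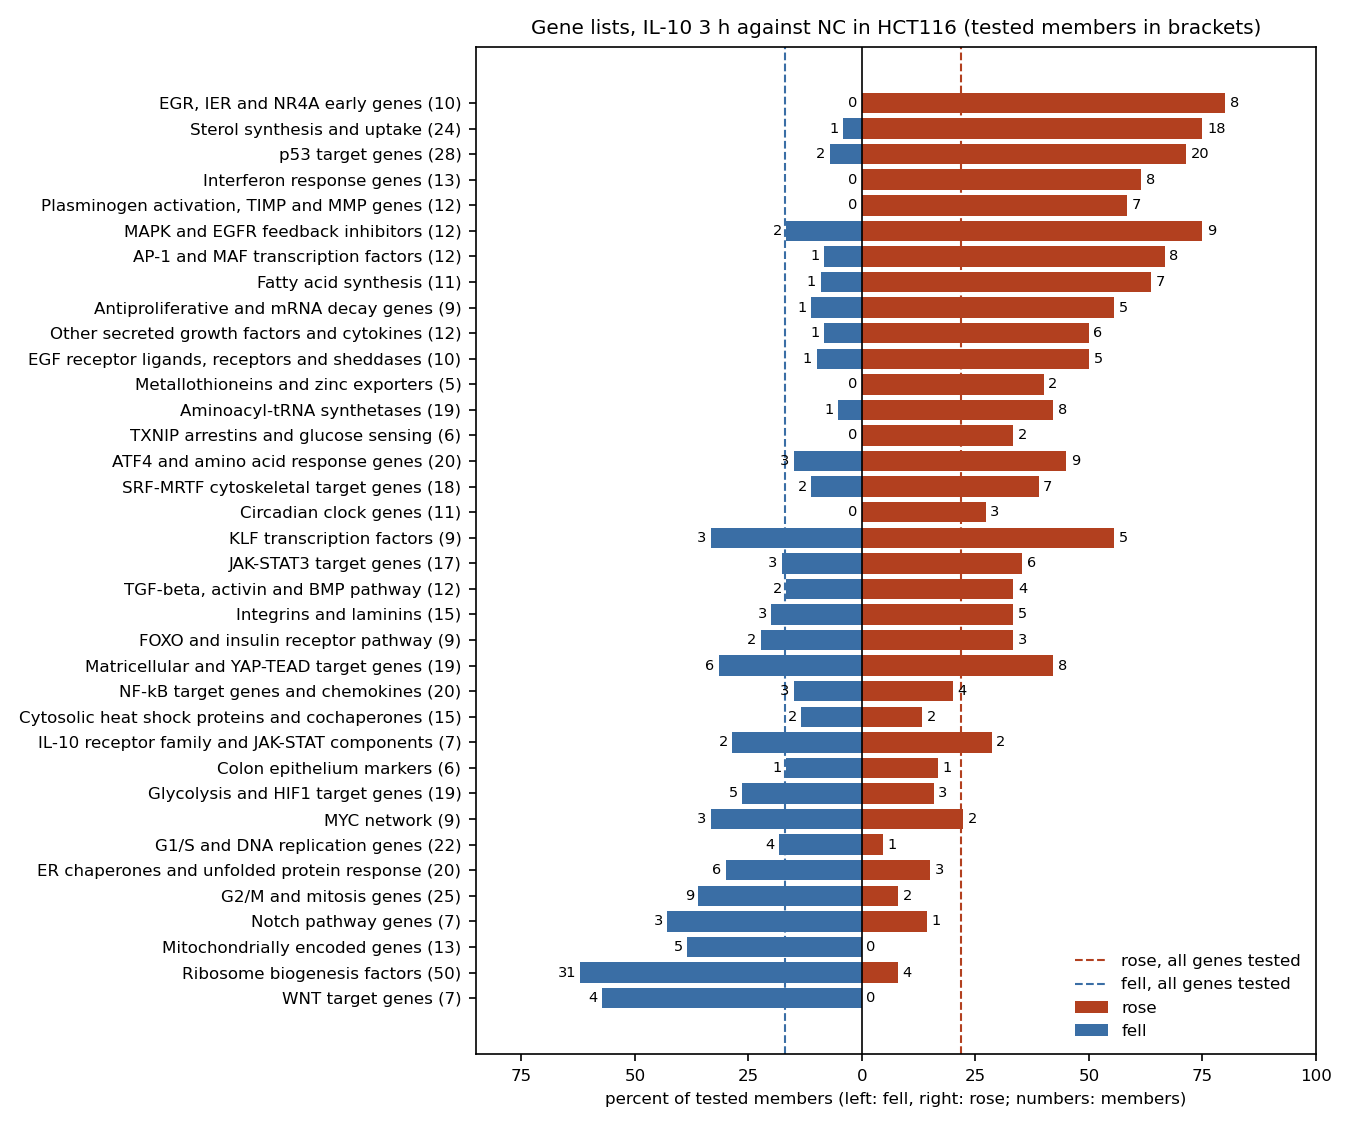
Percent of tested members of each gene list with at least 5 tested genes that rose (right, red) or fell (left, blue) in IL-10 3 h cells against NC, with the number of members at each bar and the share over all genes tested as dashed lines (21.8% rose and 16.9% fell). The EGR, IER and NR4A list leads the rises with 8 of 10, sterol synthesis has 18 of 24, and ribosome biogenesis has 31 of 50 on the falling side.

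Cholesterol synthesis genes rose as a group. Of 24 tested genes of sterol synthesis and uptake 18 rose and 1 fell, with a median of log2 0.26. The count of falls was 0 without IL-10 replicate 1 or NC replicate 2 or 3. STARD4, a sterol carrier, had 25.1, 22.0 and 20.0 FPKM in the IL-10 libraries, against 9.74, 10.3 and 9.64 FPKM in the NC libraries (log2 1.10 ± 0.07, limma adjusted p = 3.39e-10). HMGCS1, the synthase that opens the pathway, had 53.6, 47.9 and 47.8 FPKM in the IL-10 libraries, against 29.8, 28.2 and 29.5 FPKM in the NC libraries (log2 0.75 ± 0.05, limma adjusted p = 3.26e-10). IDI1, the isopentenyl diphosphate isomerase, rose by log2 0.66 and the sterol sensor partner INSIG1 by log2 0.61 (limma adjusted p = 3.89e-10 and 5.71e-07). In fatty acid synthesis 7 of 11 rose and 1 fell, the rises led by the desaturase FADS1 (log2 0.40) and the regulator SREBF1 (log2 0.36). FASN, the fatty acid synthase, was the fall (log2 -0.13), a call lost without IL-10 replicate 1 or NC replicate 1 or 3 (adjusted p 0.0865 to 0.395).

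Of 28 tested p53 target genes 20 rose and 2 fell, with a median of log2 0.18. CDKN1A, the cell cycle inhibitor p21, had 44.9, 42.9 and 40.1 FPKM in the IL-10 libraries, against 24.7, 25.8 and 25.7 FPKM in the NC libraries (log2 0.72 ± 0.06, limma adjusted p = 4.88e-09), and PMAIP1, which encodes the BH3-only protein NOXA, had 44.6, 36.0 and 35.8 FPKM in the IL-10 libraries, against 22.0, 22.4 and 21.0 FPKM in the NC libraries (log2 0.80 ± 0.08, limma adjusted p = 1.94e-07). The polo-like kinase gene PLK3 rose by log2 0.59, MDM2 by log2 0.15, and AEN and PHLDA3 fell by 0.34 and 0.24 on the log2 scale. The antiproliferative gene BTG1 had 7.01, 6.67 and 6.23 FPKM in the IL-10 libraries, against 3.43, 3.26 and 3.74 FPKM in the NC libraries (log2 0.77 ± 0.07, limma adjusted p = 6.03e-08), and its relative TOB1 was among the largest falls, at 14.9, 14.4 and 16.2 FPKM in the IL-10 libraries, against 23.6, 22.5 and 21.7 FPKM in the NC libraries (log2 -0.55 ± 0.04, limma adjusted p = 1.17e-08).

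Further lists differed in how many of their members changed. Of 13 tested interferon response genes 8 rose and none fell (median log2 0.23). There were 6 rises under each other scaling and 5 without IL-10 replicate 2. The rises included HERC5 (log2 0.44) and IFIT1 (log2 0.45), both low at NC means of 3.31 and 0.658 FPKM. Of 20 ATF4 and amino acid response genes 9 rose and 3 fell, with the cystine transporter SLC7A11 at log2 0.58 and the amino acid transporter SLC38A2 at log2 0.53 (limma adjusted p = 1.45e-07 and 3.26e-10). Of 20 NF-kB targets and chemokines 4 rose and 3 fell (median log2 -0.05), shares near those of all genes. Without IL-10 replicate 1 or NC replicate 2 only 2 rose, and with voom 5 fell. The clock repressor gene BHLHE40 had 14.1, 16.2 and 15.3 FPKM in the IL-10 libraries, against 6.35, 5.97 and 6.20 FPKM in the NC libraries (log2 1.17 ± 0.07, limma adjusted p = 1.65e-10), and the other clock genes that rose, PER1 and CRY1, stood at log2 0.24 and 0.18, neither holding when single libraries were left out (adjusted p 0.0665 for PER1 without IL-10 replicate 2, and 0.0885 to 0.241 for CRY1 without IL-10 replicate 1 or NC replicate 1 or 3). The zinc exporter SLC30A1 had 12.9, 11.3 and 11.6 FPKM in the IL-10 libraries, against 6.87, 6.90 and 6.89 FPKM in the NC libraries (log2 0.71 ± 0.06, limma adjusted p = 8.57e-09).

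The 15 largest falls among genes chosen by the same limits lay between log2 -0.80 and -0.54. GALNT5, a mucin-type glycosyltransferase, had 4.09, 3.63 and 3.75 FPKM in the IL-10 libraries, against 6.90, 7.62 and 7.64 FPKM in the NC libraries (log2 -0.80 ± 0.07, limma adjusted p = 6.31e-08). CPA4, a carboxypeptidase, had 13.9, 12.1 and 12.7 FPKM in the IL-10 libraries, against 20.7, 26.3 and 22.0 FPKM in the NC libraries (log2 -0.78 ± 0.13, limma adjusted p = 8.18e-05). SLC2A1, the glucose transporter GLUT1, was the most abundant of these 15, with 49.0, 50.8 and 51.6 FPKM in the IL-10 libraries, against 76.4, 84.4 and 77.1 FPKM in the NC libraries (log2 -0.64 ± 0.05, limma adjusted p = 1.98e-08). HK2, the hexokinase that acts on the imported glucose, had 7.85, 8.42 and 8.53 FPKM in the IL-10 libraries, against 11.4, 12.1 and 12.6 FPKM in the NC libraries (log2 -0.49 ± 0.04, limma adjusted p = 2.67e-08), while in the whole glycolysis and HIF1 list 3 of 19 rose and 5 fell. MSX2, a homeobox factor, fell by 0.60, TTYH2, a membrane protein of the tweety family, by 0.68, KLHL21, a cullin adaptor, by 0.60, and KIF18B, a mitotic kinesin, by 0.59 on the log2 scale (limma adjusted p = 8.57e-09, 6.3e-09, 8.75e-08 and 2.36e-08). CBX2, a Polycomb subunit, fell by 0.54, HS6ST1, a heparan sulfate sulfotransferase, by 0.55, CDC42EP4, a CDC42 effector, by 0.55, and RPUSD1, CDR2L and C15orf39 by 0.55, 0.57 and 0.62. The small nucleolar RNA SNORA26 had 4.18, 2.97 and 2.60 FPKM in the IL-10 libraries, against 7.74, 6.74 and 4.79 FPKM in the NC libraries (log2 -0.80, limma adjusted p = 0.015). It is short and lacks a poly(A) tail, and its call was lost without IL-10 replicate 3 (adjusted p 0.061) or NC replicate 1 (0.0683).

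Most WNT and Notch genes that passed were lower. AXIN2, the classic WNT feedback target, had 0.756, 0.793 and 1.16 FPKM in the IL-10 libraries, against 2.43, 2.41 and 2.65 FPKM in the NC libraries (log2 -0.89 ± 0.06, limma adjusted p = 2.07e-09), and the 2 groups did not overlap. The WNT receptor ubiquitin ligase genes RNF43 and ZNRF3 fell by 0.23 and 0.24, and CCND1, the cyclin D1 gene, by 0.21 on the log2 scale (limma adjusted p = 0.00159, 0.000657 and 0.00361), so that 4 of 7 tested WNT targets fell and none rose. In a fit with the replicate number as a block 1 rose. The WNT inhibitor gene DKK1, which rose as given above, is not among these 7. NOTCH1 had 2.03, 2.22 and 2.11 FPKM in the IL-10 libraries, against 3.23, 3.10 and 3.23 FPKM in the NC libraries (log2 -0.42 ± 0.04, limma adjusted p = 1.08e-07), NOTCH2 and the ligand gene JAG2 fell by 0.21 and 0.36, and the ligand gene JAG1 rose by log2 0.20 (limma adjusted p = 0.00038). Of 6 tested colon epithelium markers 4 did not pass (median log2 -0.04). CDX2, the intestinal lineage factor, fell by 0.26 on the log2 scale (limma adjusted p = 0.00111). The adhesion molecule gene EPCAM rose by log2 0.11 (limma adjusted p = 0.00101) but did not pass with total-read scaling or voom, and 2 of the 6 markers fell under each of these.

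Ribosome biogenesis factors formed the largest list with falls, 31 of 50 tested with 4 rises and a median of log2 -0.12. The sizes were small. URB2, a factor of early large subunit assembly, had 11.9, 12.4 and 13.1 FPKM in the IL-10 libraries, against 15.5, 17.0 and 16.2 FPKM in the NC libraries (log2 -0.35 ± 0.03, limma adjusted p = 1.18e-07), MYBBP1A, a nucleolar MYB-binding protein, averaged 16.9 ± 1.66 FPKM in IL-10 cells and 21.6 ± 0.741 FPKM in NC cells, and the RNA polymerase I subunit genes POLR1A and POLR1B stood at log2 -0.28 and -0.30 (limma adjusted p = 1.43e-05 and 5.5e-07). Nucleophosmin (NPM1) was among the rises, at log2 0.13. MYC itself did not pass (log2 -0.02, limma adjusted p = 0.747). Of 25 G2/M genes 9 fell and 2 rose (1 without NC replicate 2), with CCNF, the cyclin F gene, at log2 -0.39 and PLK1 at log2 -0.27 (limma adjusted p = 1.76e-06 and 3.96e-05). Of 22 G1/S genes 4 fell and 1 rose, a share of falls near the 16.9% of all genes tested. With total-read scaling 8 fell and with voom 9, where falls over all genes also grew from 1930 to 2738 and 2740. CCNE1, the cyclin E gene, fell by 0.45 on the log2 scale (limma adjusted p = 1.91e-07). Of 13 mitochondrially encoded genes 5 fell. Only 2 fell without IL-10 replicate 1 or with the compared libraries alone. ND2 and ATP6 fell by 0.30 and 0.25, alongside the lower mitochondrial share of reads given above, and the part of that share in other results was not tested.

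At 6 h of IL-10 several of the genes that stood high at 3 h were near their NC levels. Between IL-10 6 h and IL-10 3 h, 2276 genes (20.0%) were called, 1284 (11.3%) higher and 992 (8.71%) lower at 6 h. This comparison shares the IL-10 3 h libraries with the one against NC, so the genes chosen above for their 3 h values are set beside their 6 h values as a description. THBS1 had 2.87 to 3.58 FPKM at 6 h, beside 11.1 to 14.7 FPKM at 3 h and 2.50 to 3.31 FPKM in NC cells (log2 -1.79 for 6 h against 3 h). CCN1 had 11.0 to 13.3 FPKM at 6 h (log2 -1.49), and both overlapped the NC libraries. NAB2 (19.7 to 20.4 FPKM), FOSL2 (9.62 to 10.3 FPKM) and PLAU (4.86 to 5.61 FPKM) overlapped the NC range at 6 h as well. AREG (217 to 296 FPKM), EREG (223 to 272 FPKM) and HMGCS1 (35.6 to 40.4 FPKM) lay between their 3 h and NC ranges, and DKK1 (356 to 424 FPKM) lay above NC and reached its 3 h range. IL-10 6 h against NC was not tested here. Among the falls, TOB1 (21.6 to 22.9 FPKM) overlapped NC at 6 h, SLC2A1 (69.2 to 77.3 FPKM) reached into its range, and AXIN2 (1.93 to 2.05 FPKM) stayed below it.

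**Figure D3:**
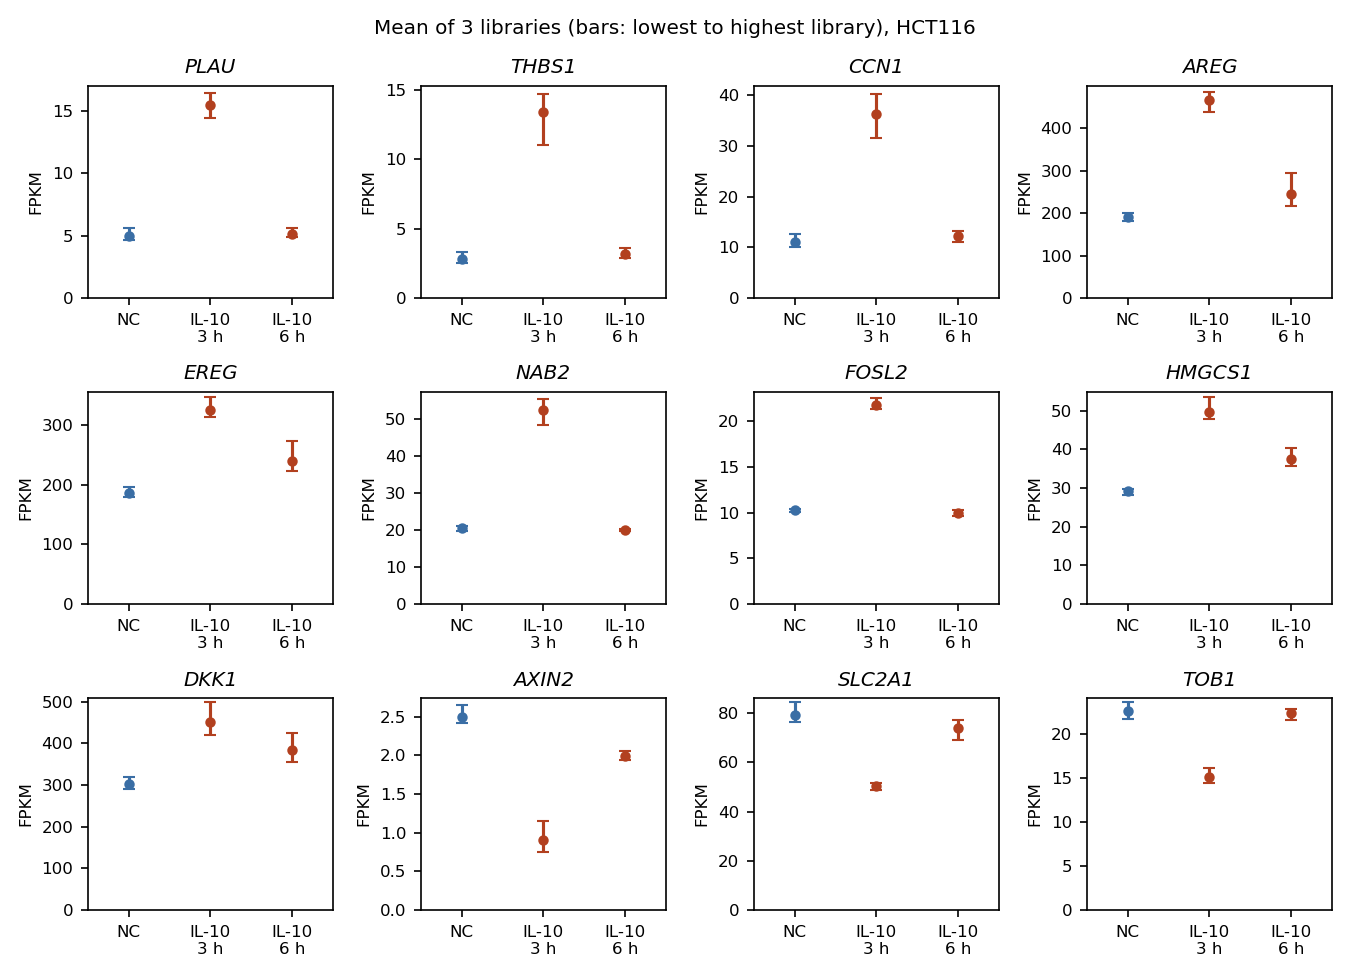
Mean FPKM of 3 HCT116 libraries (bars from the lowest to the highest library) in NC, IL-10 3 h and IL-10 6 h cells for 9 genes that rose at 3 h and 3 that fell. The 3 h point is the extreme in every panel, and at 6 h PLAU, THBS1, CCN1, NAB2, FOSL2 and TOB1 lie near NC while EREG, HMGCS1, DKK1 and AXIN2 lie in between.

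By list, 18 of 24 sterol genes, 16 of 28 p53 targets, 8 of 12 feedback inhibitors and 7 of 10 EGR, IER and NR4A genes were lower at 6 h than at 3 h, and 32 of 50 ribosome biogenesis factors were higher. The medians were log2 -0.24, -0.17, -0.35, -0.50 and 0.13 for the lists and 0.00 over all genes, of which 8.71% were lower and 11.3% higher. These lists are named for their 3 h differences from NC, and both comparisons use the same 3 h libraries. Scatter in those libraries pushes such counts the other way at 6 h, so the counts are a description as well. The other early lists were mixed, with 6 lower and 2 higher of 12 AP-1 and MAF genes (median log2 -0.24) and 4 lower and 3 higher of 9 KLF genes (median log2 -0.04). The counts of calls rest on the spread shared over 27 libraries: with the 6 compared libraries alone, 1015 genes were called, 553 higher and 462 lower at 6 h.

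IL-6 at the same hour gave few called differences. Between IL-10 3 h and IL-6 3 h cells, which share no library, 27 genes (0.237%) were called, 8 (0.0702%) higher and 19 (0.167%) lower in IL-10 cells. With only the 6 compared libraries in the fit limma called none, with 887 genes at an unadjusted p under 0.05, and voom called 39. None of the 13 rises described first was called. THBS1 had 11.1 to 14.7 FPKM in IL-10 cells and 8.82 to 11.0 FPKM in IL-6 cells (log2 0.36 ± 0.18, limma adjusted p = 0.521). For CCN1 the ranges were 31.6 to 40.3 and 28.9 to 32.6 FPKM (log2 0.22 ± 0.13), and for AREG 439 to 485 and 398 to 421 FPKM (log2 0.19 ± 0.10) for IL-10 and for IL-6 cells. A missed threshold does not show that these levels are equal.

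The genes that did differ were led by STAT3, and the called STAT3 targets were all lower in IL-10 cells. STAT3 had 12.6 ± 0.219 FPKM in IL-10 cells and 18.1 ± 1.21 FPKM in IL-6 cells (log2 -0.49 ± 0.04, limma adjusted p = 1.46e-06). SOCS3 had 2.26 ± 0.0649 against 3.27 ± 0.242 FPKM (log2 -0.39 ± 0.07, limma adjusted p = 0.00655), and BCL3, an IkB family coactivator, 0.946 ± 0.129 against 1.61 ± 0.0666 FPKM (log2 -0.43 ± 0.07, limma adjusted p = 0.00655). ICAM1, IRF1 and OSMR, the oncostatin M receptor, were lower by 0.41, 0.37 and 0.30 on the log2 scale, so that 5 of 17 tested STAT3 targets were lower and none higher. SOCS3 and ICAM1, but not STAT3, were also lower in IL-10 than in NC cells, as given above. The IL-6 mean of SOCS3 lay within the range of its NC libraries. A comparison of IL-6 with NC was not tested here. PARP9 and its partner DTX3L, which act in the interferon response, were lower by 0.34 and 0.41. STAT3, PARP9 and DTX3L kept their calls when any 1 library was left out. The call of SOCS3 was lost without IL-6 replicate 3 (adjusted p 0.0621), that of BCL3 without IL-10 replicate 3 (0.0555), that of ICAM1 without IL-10 replicate 1 or IL-6 replicate 1 (0.0692 to 0.0746), that of IRF1 without IL-10 replicate 1 or IL-6 replicate 1, 2 or 3 (0.0613 to 0.144), and that of OSMR without IL-10 replicate 1 or 3 or IL-6 replicate 3 (0.0646 to 0.118). The mitochondrial gene ND2 was lower by 0.29, a call lost without IL-10 replicate 1 or IL-6 replicate 1 or 2 (0.0613 to 0.175), and mitochondrially encoded reads were 5.03% to 5.65% in IL-10 and 6.04% to 6.18% in IL-6 libraries. The 8 genes higher in IL-10 cells differed by at most log2 0.25, the value of TANK, a TRAF-binding adaptor whose call was lost without IL-10 replicate 1 or IL-6 replicate 1, 2 or 3 (0.0613 to 0.158).

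**Figure D4:**
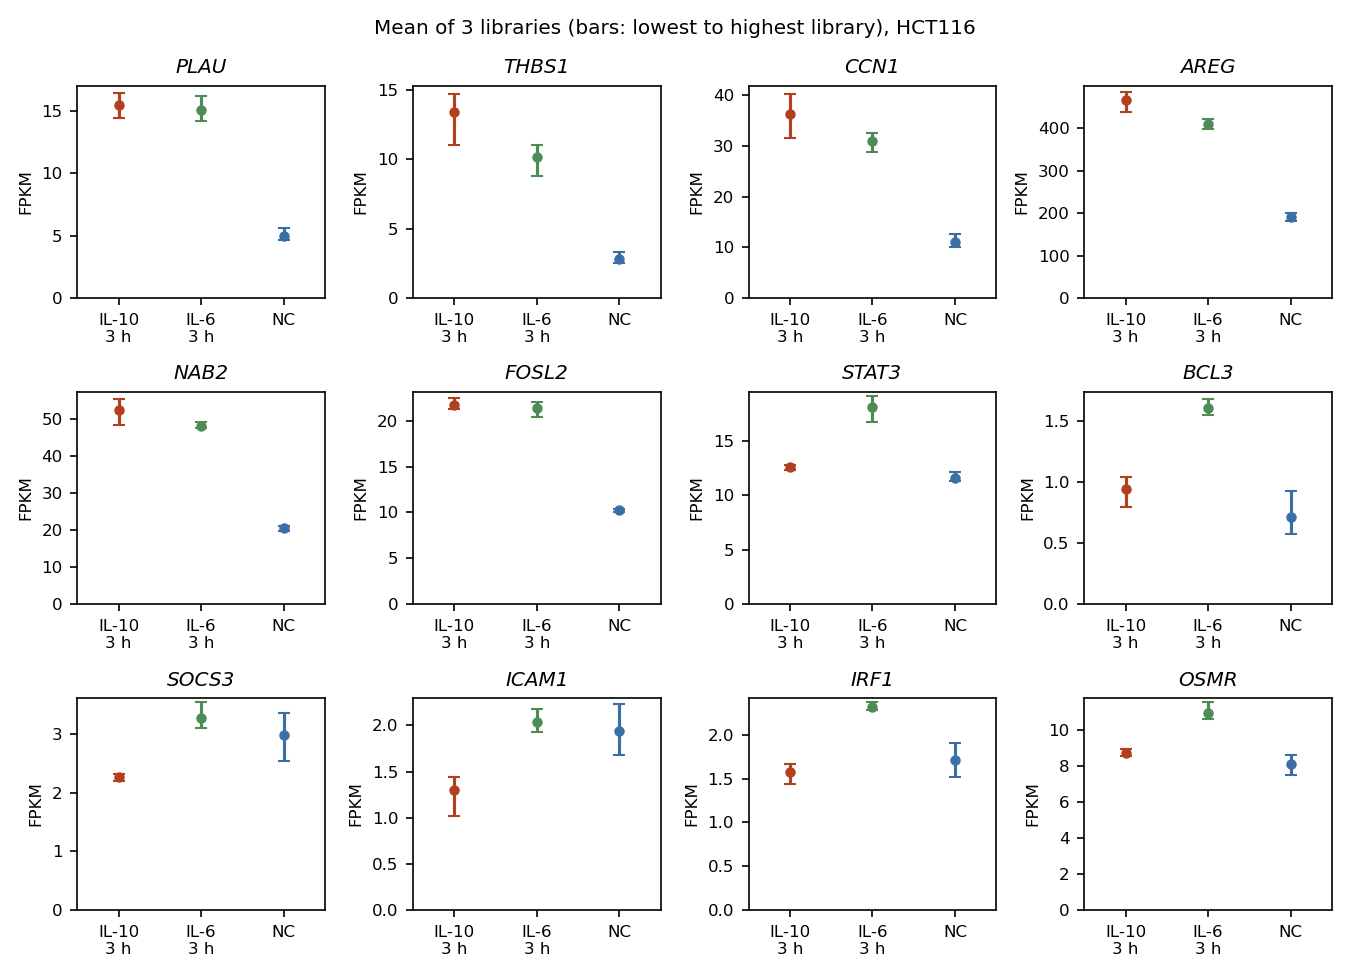
Mean FPKM of 3 HCT116 libraries (bars from the lowest to the highest library) in IL-10 3 h, IL-6 3 h and NC cells. In the panels of PLAU, THBS1, CCN1, AREG, NAB2 and FOSL2, both cytokine groups lie above NC, and in the other panels STAT3, BCL3, SOCS3, ICAM1, IRF1 and OSMR lie lower in IL-10 than in IL-6 cells.

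The other agents at 3 h are given side by side with no test, since their comparisons with NC share its libraries. STARD4 averaged 22.4 ± 2.58 FPKM with IL-10, 20.0 ± 1.32 with IL-6, 16.3 ± 1.05 with TNF-α and 18.6 ± 0.932 with Torin1. PLAU averaged 15.5 ± 0.981 FPKM with IL-10 and 16.1 ± 1.72 with Torin1 but 92.9 ± 2.34 with TNF-α. AXIN2 averaged 0.901 ± 0.221, 1.02 ± 0.0829, 0.439 ± 0.0597 and 1.36 ± 0.101 FPKM with IL-10, IL-6, TNF-α and Torin1. Each error is the SD over 3 libraries.

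HepG2 cells given IL-10 for 3 h share no library with HCT116 and give the same contrast in another line. Over 9683 genes tested in both lines, 1989 (20.5%) were called in HepG2 against its own NC, 714 (7.37%) higher and 1275 (13.2%) lower. Of the 2158 HCT116 rises among these genes 352 also rose in HepG2, 16.3% of the HCT116 and 49.3% of the HepG2 list, and 120 fell there. Of the 1749 HCT116 falls 479 also fell in HepG2, 27.4% and 37.6% of the lists, and 58 rose. The difference of the effects, tested in 1 fit of all 54 libraries, was called for 2365 genes (24.4%), 1515 (15.6%) with the larger value in HCT116 and 850 (8.78%) with the larger value in HepG2. That split depends on the scaling, since the counts were 1115 and 1114 with total-read scaling and 1147 and 1079 with voom.

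CCN1 rose in both lines, by log2 1.63 ± 0.13 in HCT116 and 1.29 ± 0.14 in HepG2 (difference 0.34 ± 0.20, limma adjusted p = 0.228), as did SRF (0.84 ± 0.08 and 0.85 ± 0.08, difference -0.01 ± 0.11) and KLF6 (0.82 ± 0.08 and 0.78 ± 0.08, difference 0.04 ± 0.12), none of the 3 differences passing. THBS1 and NAB2 rose in both but further in HCT116, by log2 1.91 and 1.31 against 1.31 and 0.98 (limma adjusted p of the difference = 0.0262 and 0.0173). The difference for THBS1 lost its call without HCT116 IL-10 replicate 1 or 2, HCT116 NC replicate 1 or 3, HepG2 IL-10 replicate 3 or HepG2 NC replicate 2 (adjusted p 0.0587 to 0.0861) and with no filter on low values (0.0725). That for NAB2 lost it without HCT116 IL-10 replicate 2 (0.0504) or HepG2 IL-10 replicate 3 (0.112), with a pseudocount of 0.1 (0.0561), with the compared libraries alone (0.0928) and with voom (0.0875). The test of the difference separated PLAU (log2 -0.14 in HepG2, adjusted p of the difference = 1.5e-14), PLAUR (0.03, 3.11e-08), PARD6B (0.04, 5.11e-15) and AREG (0.21, 1.89e-07), whose HepG2 NC means were 1.26, 1.09, 6.79 and 1.76 FPKM. A HepG2 change at the lowest of these levels is understated on this scale. These genes, THBS1 and NAB2 were chosen among the largest HCT116 rises, and the same HCT116 libraries enter the difference. Scatter in those libraries widens it, so these p-values lean low. EGR1 and JUNB went the other way round, rising further in HepG2 (log2 1.01 and 1.12) than in HCT116 (0.20, not passing, and 0.41), with adjusted p of the difference 2e-06 and 5.11e-05.

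By list, sterol synthesis gave 3 rises and 3 falls among 23 tested genes in HepG2 (median log2 -0.04), beside 18 and 1 of 24 in HCT116, and HMGCS1 and STARD4 passed the test of the difference (limma adjusted p = 2.47e-07 and 9.66e-11). NF-kB targets gave 15 rises and no fall among 18 in HepG2 (median log2 0.56), beside 4 and 3 of 20 in HCT116, with ICAM1 (difference log2 -0.93, limma adjusted p = 3.95e-09) and CCL20 (difference log2 -1.41, adjusted p = 2.02e-07) differing between the lines. The CCL20 difference was not called with voom (adjusted p 0.0896). All 10 AP-1 and MAF genes and all 7 KLF genes tested in both lines rose in HepG2, beside 8 of 12 and 5 of 9 in HCT116. Of the ribosome biogenesis factors 5 rose and 8 fell among 50 in HepG2, beside 4 and 31. AXIN2, at 17.6 FPKM in IL-10 and 17.6 FPKM in NC cells of HepG2, also differed between the lines (difference log2 -0.88 ± 0.07, limma adjusted p = 6.25e-12). HMGCS1, STARD4 and AXIN2 were named for their HCT116 changes, from libraries that also enter the difference. IL10RA was listed at 0 in these HepG2 libraries, and IL10RB averaged 0.0257 FPKM in IL-10 and 0.0238 FPKM in NC cells.

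**Figure D5:**
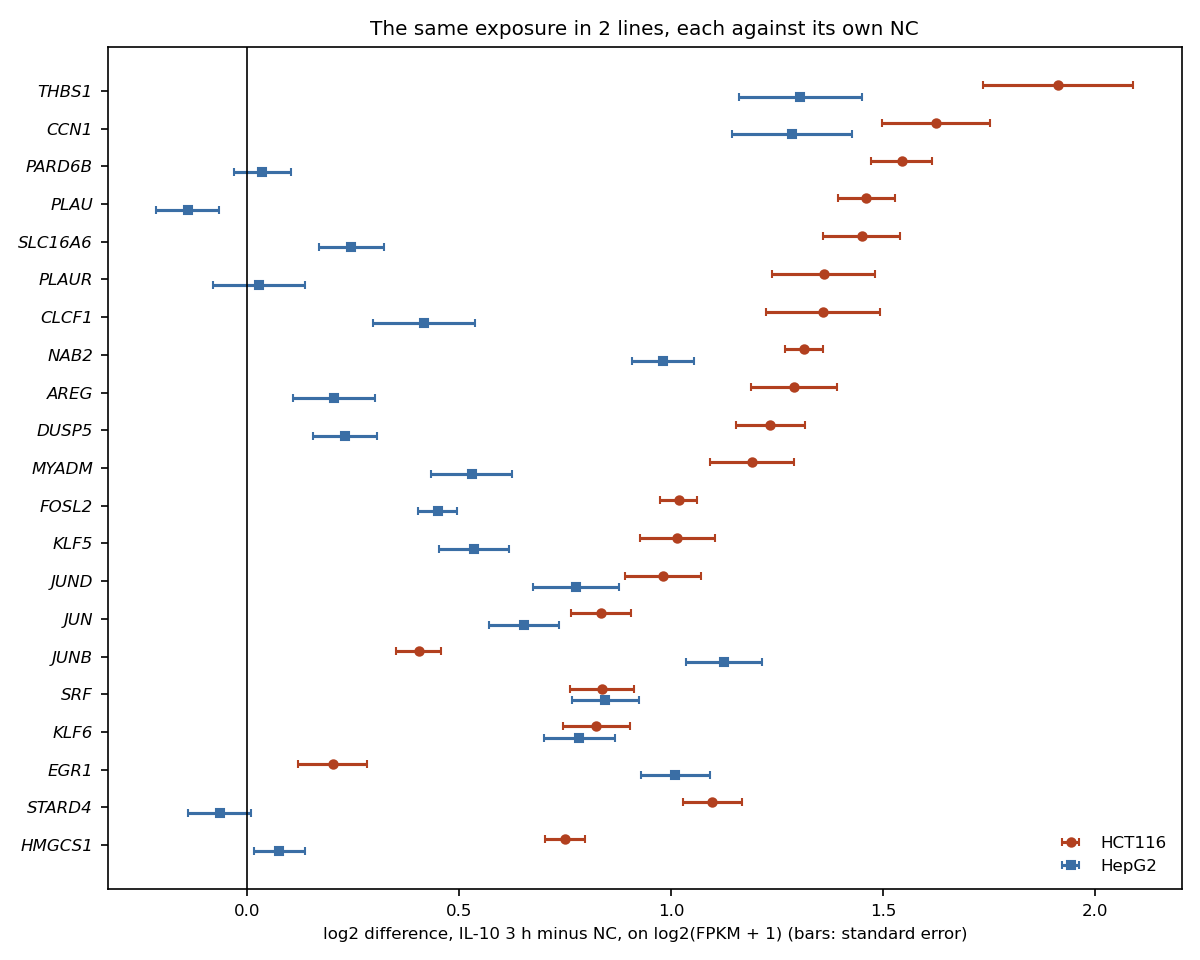
Log2 difference between IL-10 3 h and NC on the log2(FPKM + 1) scale, with standard errors, in HCT116 (circles) and HepG2 (squares), each against its own NC, for the largest HCT116 rises tested in both lines and 10 further early and sterol genes. CCN1, JUND, JUN, SRF and KLF6 lie close together, PARD6B, PLAU and STARD4 lie near 0 in HepG2, and JUNB and EGR1 lie further right in HepG2.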

How the data were processed

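Poly(A) RNA was sequenced as paired ends on an MGISEQ-2000RS, per the labels. The deposited table holds FPKM per gene and library, which the authors made with HISAT2 and StringTie on GRCh38, per the submitters' processing notes, which give no version and no strand setting. A further 48 columns of the table were not used here. Whole reads could be recovered from the FPKM for 36449 of 36451 genes (99.99%, within 0.01 read), which gave the depth. The relative library sizes behind the FPKM were 0.9937 to 0.9973 times the median-of-ratios factors of these reads over all 54 libraries. The deposited values thus follow such factors and not the total of reads in a library. log2(FPKM + 1) was fitted with limma-trend 3.58.1 (R 4.3.3), with Benjamini-Hochberg adjustment, over all 27 HCT116 libraries for the HCT116 comparisons and over all 54 for HepG2 and the difference between lines, so that a fold of a gene near 1 FPKM is understated. Symbols, spans and promoters come from RefSeq GRCh38.p14. The fit was checked on simulated data with a pass mark set only on changes of at least 2-fold, so that check does not speak to smaller ones.

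Named genes are the 15 largest rises and falls with at least 5 FPKM in a group, 1 entry in the table and no overlap of the groups, the 4 largest called members of each of 41 gene lists, all members of the receptor, EGF receptor, AP-1, EGR and KLF lists, and the 5 largest calls each way of the other comparisons. Genes with a second copy entry were fitted and not named, and a few named by these rules are counted but not reported here. AEN, PHLDA3, AMOTL2, LATS2, CRIM1, DOCK5, FASN, MDM2, MMP14, TIMP1 to TIMP3, NPM1, POLR1A, POLR1B, MYC, SOCS3, the actin genes, MYH9 and the STAT3 targets set against IL-6 were added after their values were seen. Members and lists were chosen with earlier results of these data known. Alternatives were the pseudocount, the filter, the scaling, voom on recovered reads, the compared libraries alone, leaving out copy entries or 1 library, and the replicate number as a block.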

Additional observations from a re-analysis of the deposited data

Results flagged for a closer look

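The effect of IL-10 at 3 h was called different between HCT116 and HepG2 for 21 of the leading genes, the 13 rises and 15 falls described above. The difference itself was tested in the fit of all 54 libraries, which called 24.4% of the genes tested in both lines. The leading genes were chosen for large HCT116 changes, and the same HCT116 libraries enter the difference. Scatter in those libraries pushes the difference away from 0 in the chosen direction, so the count is a description. Given as the HCT116 effect minus the HepG2 effect on the log2(FPKM + 1) scale, the difference was above 0 for PLAU (1.60), PARD6B (1.51), PLAUR (1.33), SLC16A6 (1.20), AREG (1.09), DUSP5 (1.00), CLCF1 (0.94), MYADM (0.66), THBS1 (0.61) and NAB2 (0.33). It was below 0 for SNORA26 (-0.97), KLHL21 (-0.87), TOB1 (-0.68), C15orf39 (-0.61), KIF18B (-0.58), SLC2A1 (-0.56), CDR2L (-0.55), HS6ST1 (-0.44), CBX2 (-0.44), RPUSD1 (-0.43) and CDC42EP4 (-0.24). The largest limma adjusted p among them was 0.0262. TOB1 and KLHL21 fell in HCT116 and had log2 0.14 and 0.26 in HepG2. Several of the rising genes were low in HepG2 NC cells, with means of 1.09 FPKM for PLAUR, 1.26 FPKM for PLAU and 1.76 FPKM for AREG. A change on this scale is understated at such levels, and the part of that in the difference was not tested. The difference for SNORA26 lost its call without HCT116 IL-10 replicate 3 (adjusted p 0.0596), HCT116 NC replicate 1 (0.0651) or HepG2 IL-10 replicate 2 (0.0516), or with no filter on low values (0.0623), and those for THBS1 and NAB2 lost theirs under the settings given with them above.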

How the results depend on the processing

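Of 219 named genes tested between IL-10 3 h and NC, 191 were called, 152 of them under each of 15 alternatives and 39 not under at least 1, and 0 turned direction with a call. The count of called genes was 3194 to 4223 when 1 library was left out (1806 to 2350 higher and 1388 to 1914 lower). Changes of at least 2-fold were more numerous with a pseudocount of 0.1 (55 higher and 13 lower) and with voom (50 and 23). Falls of that size numbered 3 with no filter on low values, 2 with the compared libraries alone, 1 without copy-entry genes and 2 to 9 when 1 library was left out (2 without IL-10 replicate 2). With the compared libraries alone, 3399 genes were called between IL-10 3 h and NC (1938 higher and 1461 lower). The same setting called 1015 genes at 6 h against 3 h (553 higher and 462 lower), 1228 in HepG2 (704 lower), and 0 against IL-6 (0 higher and 0 lower, with 887 at an unadjusted p under 0.05), in fits with fewer degrees of freedom. Against IL-6, voom called 30 genes lower, and leaving out 1 library gave 14 to 30 calls (3 to 12 higher and 10 to 18 lower). In HepG2 leaving out 1 library gave 1315 to 1780 calls (454 to 671 higher), the fewest without IL-10 replicate 2. Total-read scaling gave 631 higher and 1546 lower in HepG2, and voom 707 and 1750. With the replicate number as a block 4496 genes were called between IL-10 3 h and NC, 2514 higher and 1982 lower. The deviations of same-numbered IL-10 and NC libraries correlated at 0.0202, 0.052 and -0.0253, so no shared deviation by number was seen. The labels do not say whether same-numbered libraries were prepared together. The aminoacyl-tRNA synthetase list had 8 rises and 1 fall, and 3 and 3 with total-read scaling or voom, and the heat shock list had 2 and 2, and 1 and 6 with total-read scaling. The cause of these shifts was not tested.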
